A study of Mus musculus with 40 samples.

Results

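The nuclear receptor gene Ppara and 8 genes known in liver as its targets, Acaa1b, Ehhadh, Cyp4a10, Cyp4a14, Vnn1, Vnn3, Angptl4 and Pdk4, are described here in mouse liver RNA. These 9 genes are 9 of the 55487 genes in the count table and of the 20297 genes that passed a filter on low counts, which all 9 passed. They were chosen by the comparison of knockout with WT livers in these same libraries, in which Acaa1b, Ehhadh and Vnn3 were among the most clearly lower genes, so their difference between genotypes is given as a description, and the test's calls of the 9 genes support nothing. PPARA is a receptor that binds fatty acids and their derivatives, pairs with a retinoid X receptor, and switches on genes of fatty acid oxidation in hepatocytes. Its targets are best known from fasting and from drugs of the fibrate class, which in rodents also enlarge the peroxisome compartment, where very long chain fatty acids are shortened. The targets described here also include enzymes of the endoplasmic reticulum, secreted and membrane-anchored proteins, and a mitochondrial kinase.

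The study compared HNKO mice, which lack Nampt in hepatocytes, with WT littermates, and it sampled the livers over a time course on a purified diet. HNKO mice were Nampt fl/fl and carried Alb-Cre (+/−), whereas WT mice were floxed littermates without Cre. All were 9-week-old females on the C57BL/6JBomTac background, given a low-fat purified diet with defined amino acids during 3, 6, 12 or 21 days. In the labels these days stand as an age, whereas the paper gives them as time on the diet. Cre under the Alb promoter acts in hepatocytes, whereas RNA came from whole liver, which also holds other cells. The share of those cells in each value was not measured. The WT groups held libraries 1, 5, 24, 25 and 26 on day 3, libraries 8, 10, 27 and 28 on day 6, libraries 14, 15, 16, 33 and 34 on day 12, and libraries 19, 20, 21, 39 and 41 on day 21. The HNKO groups held libraries 2, 3, 4, 22 and 23 on day 3, libraries 6, 7, 29, 30 and 31 on day 6, libraries 11, 12, 13, 32, 35 and 36 on day 12, and libraries 37, 38 and 40 on day 21. Values per library are given in this order of library numbers. HNKO libraries 17 and 18 of day 21, labelled as having failed quality control, were left out of all results given here unless they are named. Total counts in the 38 libraries ranged from 16151037 to 64181492, with a median of 26466478.5, and a gene of the 9 had from 61 counts (Pdk4, lowest) to 45010 counts (Cyp4a14, highest) in a library.

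Nampt (ENSMUSG00000020572.8), the targeted gene, was checked first. Its level as log2 CPM, the log2 of a count scaled to a common library total, was 6.15, 6.57, 6.32, 6.06 and 5.84 in WT livers on day 3 and 5.31, 5.38, 5.21, 5.14 and 5.35 in HNKO livers. On day 6 it was 7.28, 7.09, 6.00 and 5.99 in WT and 5.69, 6.36, 5.48, 5.55 and 5.81 in HNKO. HNKO library 7 of day 6 lay above WT libraries 27 and 28, and the groups did not overlap on day 3. The day 6 difference of HNKO from WT in mean log2 CPM was -1.16 within libraries 1 to 21 and -0.38 within libraries 22 to 41. Within each of these series the groups of day 6 did not overlap. On day 12 Nampt was 6.11, 6.12, 7.24, 5.89 and 5.90 in WT and 4.92 at the lowest, 5.67 at the median and 5.77 at the highest in HNKO, and on day 21 it was 6.26, 6.52, 6.65, 6.44 and 6.43 in WT and 5.55, 6.03 and 5.73 in HNKO. Every HNKO library was below every WT library at days 12 and 21. The log2 fold change of HNKO against WT (± SE) was -0.93 ± 0.23 on day 3, -0.90 ± 0.24 on day 6, -0.82 ± 0.22 on day 12 and -0.69 ± 0.27 on day 21, with Benjamini-Hochberg adjusted p of 0.0193, 0.0128, 0.0208 and 0.161 by edgeR's quasi-likelihood test over all tested genes. Nampt passed the threshold of an adjusted p under 0.05 at the first 3 of these days.

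Markers of the cell types in the libraries were measured beside the 9 genes. Hepatocyte markers, led by Alb, summed to a median of 134451, 133747, 122313 and 116658 CPM in WT livers at days 3, 6, 12 and 21, and to 97890, 93198, 105064 and 89688 CPM in HNKO livers. In the mean of the 4 days' contrasts, in which 17.3% of all tested genes were lower and 19.2% higher, 7 of the 11 tested hepatocyte markers were lower in HNKO and 1 was higher (edgeR quasi-likelihood test, Benjamini-Hochberg adjusted p under 0.05), among them Rbp4 (-0.55 ± 0.07, adjusted p = 5.46e-07) and Alb (-0.46 ± 0.09, adjusted p = 0.000157). Bile duct markers, led by Spp1, had summed medians of 53.1, 49.2, 53.8 and 53.4 CPM in WT against 300, 283, 179 and 236 CPM in HNKO. Of their 7 genes 6 were higher in HNKO, Spp1 by 2.71 ± 0.19 and Cftr by 2.92 ± 0.21. Stellate and fibroblast markers, led by Col3a1, had summed medians of 203, 138, 150 and 148 CPM in WT against 344, 487, 302 and 430 CPM in HNKO, and 7 of their 8 genes were higher, Timp1 by 4.49 ± 0.39 and Col1a1 by 2.74 ± 0.30. Macrophage markers, led by Clec4f, were higher for 4 of 6 genes, and of the 5 endothelial markers, led by Stab2, Kdr was lower (-0.27 ± 0.05) and the other 4 did not pass the test. In whole liver, fewer hepatocytes and less RNA of a gene per hepatocyte cannot be told apart, and the part of these shifts in the values of the 9 genes was not tested.

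Markers of tissues outside the liver were found in some libraries. Summed adipocyte, skeletal muscle or exocrine pancreas markers were above 10 CPM in 10 of the 38 libraries, namely WT libraries 26, 19 and 21 and HNKO libraries 23, 7, 11, 13, 32, 35 and 37. Muscle markers reached 597 CPM in HNKO library 11 of day 12, led by Myh1, and 399.6 CPM in HNKO library 37 of day 21, led by Acta1, against a median of 0.221 CPM in WT on day 12 and 0.273 CPM in WT on day 21. In WT libraries 21 and 19 of day 21 they stood at 104.8 and 44.5 CPM. Adipocyte markers, led by Cfd, reached 36.5 CPM in HNKO library 11, 23.7 CPM in HNKO library 32 and 23.6 CPM in WT library 26, and pancreas markers reached 20.7 CPM in HNKO library 23. All 5 muscle markers were higher in HNKO on day 12, as were 4.56% of all tested genes (edgeR quasi-likelihood test, adjusted p under 0.05), whereas in the mean of days they did not pass, with 1 of them at an unadjusted p under 0.05. Some of the results are also given without these libraries, as a choice made after the data were seen; 28 libraries then remained, of which 2 were HNKO on day 12 and 2 HNKO on day 21. Whether such RNA had a part in the values of the 9 genes was not tested.

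Per length of their exons, the 9 genes spanned a wide range of levels in the 19 WT livers. Mean CPM per kilobase of exon (± SD, n = 19) was 249 ± 50.4 for Acaa1b, 187 ± 109 for Cyp4a14, 174 ± 93.7 for Cyp4a10 and 146 ± 32.1 for Ehhadh. The differences between neighbours among these 4 were smaller than the larger of their SDs. Vnn3 followed at 69.3 ± 7.63 and Ppara at 66.7 ± 13.03, which did not differ beyond their spread, and every WT library had less Vnn3 per kilobase (at most 81.0) than the lowest Ehhadh value (94.6). Vnn1 stood at 36.8 ± 9.98, Angptl4 at 24.98 ± 8.69 and Pdk4 at 4.88 ± 3.75 CPM per kilobase, and the ranges of Vnn1 and Angptl4 overlapped, as did those of Angptl4 and Pdk4.

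**Figure D1:**
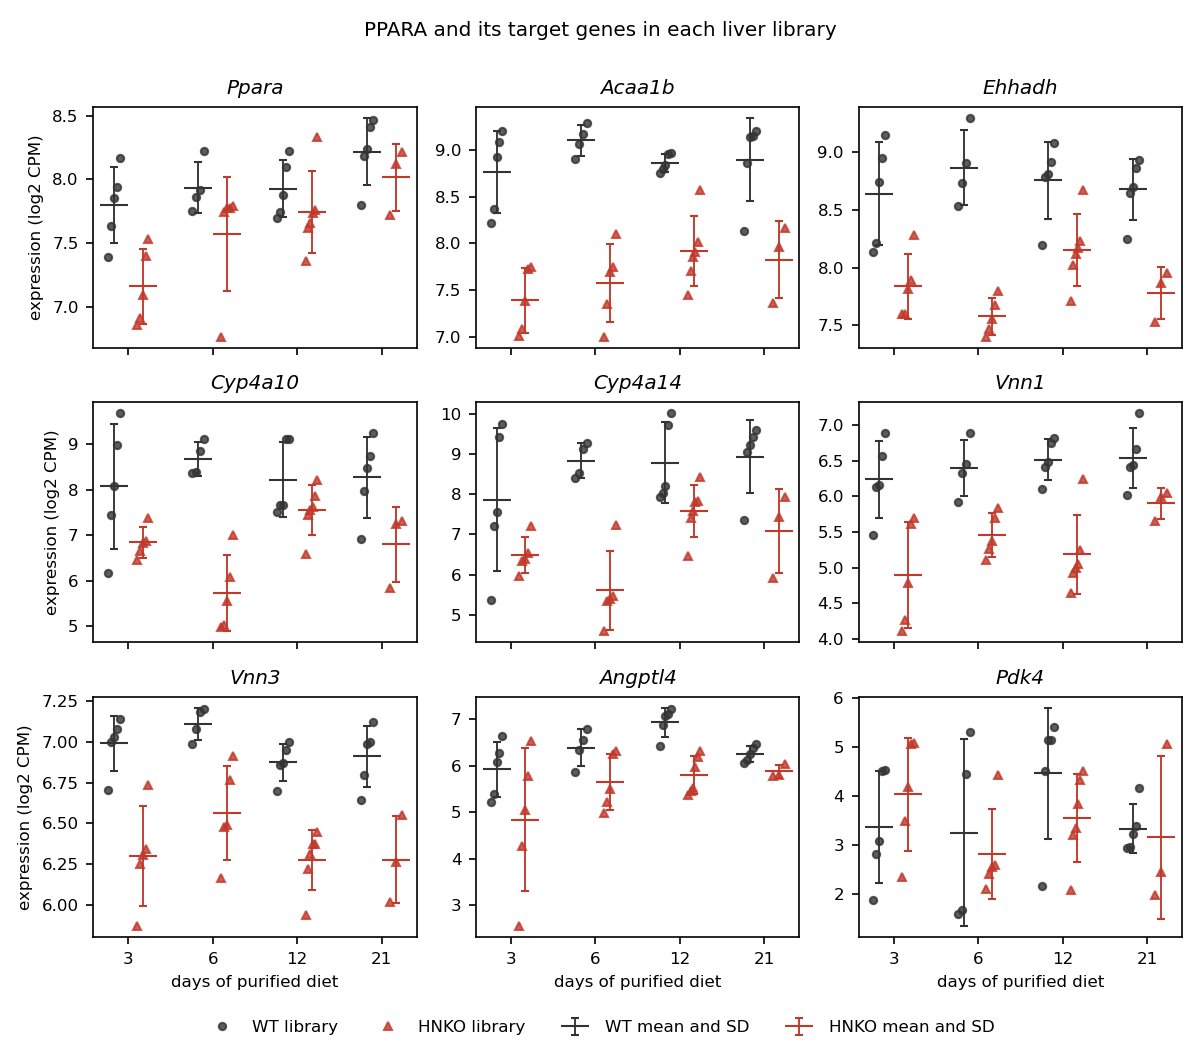
Log2 CPM of the 9 genes (vertical axis) in each WT and HNKO library by days on the purified diet (horizontal axis); each point is 1 library and the bars are group means with their SD. On day 6 the HNKO points of Acaa1b, Ehhadh, Cyp4a10, Cyp4a14, Vnn1 and Vnn3 sit below every WT point, whereas those of Ppara and Pdk4 overlap with WT at each day.

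Ppara (ENSMUSG00000022383.13, chr15:85734983-85802819, GRCm38) encodes the receptor itself. Its log2 CPM was 7.39, 7.94, 8.17, 7.86 and 7.63 in WT livers on day 3 and 7.53, 6.91, 6.86, 7.40 and 7.09 in HNKO livers. On day 6 the WT values were 7.92, 8.22, 7.75 and 7.86, and the HNKO values were 7.78, 7.74, 6.76, 7.78 and 7.79. On day 3 HNKO libraries 3, 4 and 23 were below every WT library, and on day 6 HNKO library 29 stood far below the other 4, which lay at the lower edge of WT. WT livers of day 12 had 7.75, 7.70, 8.22, 8.10 and 7.88, and the 6 HNKO livers had 7.36 at the lowest, 7.70 at the median and 8.34 at the highest. WT livers of day 21 had 8.24, 8.47, 8.42, 8.18 and 7.80, against 7.72, 8.21 and 8.12 in HNKO. The groups overlapped at all 4 days, and HNKO library 32 of day 12 was above every WT library of that day. The log2 fold change of HNKO against WT (± SE) was -0.64 ± 0.18 on day 3, -0.33 ± 0.19 on day 6, -0.17 ± 0.17 on day 12 and -0.20 ± 0.21 on day 21. These small values moved with single libraries, as that of day 6 was -0.16 without HNKO library 29 and that of day 21 was -0.05 without HNKO library 37. The value of day 12 lay between -0.31 without HNKO library 32 and -0.07 without HNKO library 35, and it also moved by more than 1.5 times without WT library 16.

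The genes were chosen by the comparison of genotypes at each day and not by a comparison of days. The levels of the same groups entered both, so the day effects are not independent of the choice. In HNKO livers Ppara changed with the day, as its log2 level was above that of day 3 by 0.43 on day 6, 0.59 on day 12 and 0.85 on day 21 (edgeR quasi-likelihood F test, Benjamini-Hochberg adjusted p = 0.0292). In WT livers the differences from day 3 were 0.12, 0.12 and 0.41 and did not pass (adjusted p = 0.4). The test of whether the genotype difference depended on the day did not pass for Ppara either (unadjusted p = 0.27). The day effect in HNKO rested on single livers, since it missed the threshold without HNKO library 3 (adjusted p = 0.0875), 4 (0.0867) or 23 (0.0552) of day 3, without HNKO library 38 (0.0703) or 40 (0.0574) of day 21, and without the 10 libraries that held markers of other tissues (0.117). By the same test a day effect in HNKO was found for 4 of 6 macrophage, 2 of 7 bile duct and 1 of 8 stellate and fibroblast markers. It was also found for 1 of 11 hepatocyte, 0 of 5 endothelial, 5 of 5 skeletal muscle, 2 of 4 adipocyte and 1 of 3 exocrine pancreas markers. The part of these cell types in the day effect of Ppara was not tested. Of the 9 genes, Ppara was the 1 with a day effect in HNKO, against 7.90% of all tested genes. With DESeq2, which gave 2234 genes a day effect in HNKO against 1604 with edgeR, Cyp4a10 passed as well (adjusted p = 0.0497). Without HNKO library 7 of day 6, Cyp4a10 (0.0337) and Cyp4a14 (0.0326) also passed with edgeR, as did Cyp4a10 without WT library 1 of day 3 (0.0486). In WT livers 0 of the 9 genes had a day effect by edgeR, with 0 also at an unadjusted p under 0.05 and 0 with DESeq2, against 5.84% of all tested genes with edgeR.

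Acaa1b and Ehhadh encode enzymes of the peroxisomal beta-oxidation spiral. Acaa1b (ENSMUSG00000010651.4, chr9:119148023-119157093) is a thiolase, which releases acetyl-CoA in the last step of the cycle. Its log2 CPM on day 3 was 8.22, 8.93, 9.08, 8.37 and 9.21 in WT and 7.75, 7.08, 7.01, 7.72 and 7.39 in HNKO, and on day 6 it was 9.06, 9.18, 9.29 and 8.90 in WT and 7.75, 8.10, 6.9997, 7.69 and 7.35 in HNKO. At both days every HNKO library was below every WT library. By day 12 Acaa1b measured 8.85, 8.80, 8.96, 8.76 and 8.97 in WT and 7.44 at the lowest, 7.88 at the median and 8.57 at the highest in HNKO, and by day 21 it measured 8.86, 9.21, 9.16, 9.14 and 8.14 in WT and 7.36, 8.16 and 7.96 in HNKO. The groups were again apart on day 12, whereas on day 21 WT library 41 fell just under HNKO library 38. The log2 fold changes were -1.39 ± 0.22, -1.49 ± 0.23, -0.91 ± 0.21 and -1.09 ± 0.26 at days 3, 6, 12 and 21. Of the stretches of 51 bases in its transcripts, 39.2% also occur in transcripts of other genes, 30.1% in its paralog Acaa1a and 9.10% in Dlec1, which lies on the opposite strand and had a median of 99.5 counts against 8599.5 for Acaa1b. Acaa1a was lower in HNKO in the mean of days by -0.41 ± 0.08 (edgeR quasi-likelihood test, adjusted p = 0.000113).

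Ehhadh (ENSMUSG00000022853.7, chr16:21761287-21787807) encodes the bifunctional hydratase and dehydrogenase of the same cycle. On day 3 its log2 CPM was 8.14, 8.74, 8.95, 8.22 and 9.15 in WT livers and 8.28, 7.60, 7.59, 7.81 and 7.90 in HNKO livers. On day 6 the WT livers had 8.53, 8.74, 9.30 and 8.91 and the HNKO livers 7.68, 7.79, 7.55, 7.46 and 7.40. HNKO library 2 of day 3 was within the WT range and the other 4 were under it, and on day 6 the groups were apart. Ehhadh had values of 8.79, 8.92, 8.196, 8.81 and 9.08 in WT on day 12, and in HNKO 7.71 at the lowest, 8.14 at the median and 8.67 at the highest. Ehhadh had values of 8.65, 8.94, 8.70, 8.86 and 8.25 in WT on day 21, and 7.53, 7.95 and 7.86 in HNKO. HNKO libraries 32 and 35 lay within the WT range on day 12, where WT library 16 was the lowest of its group, and the groups did not overlap on day 21. Fold changes of Ehhadh on the log2 scale were -0.84 ± 0.19, -1.31 ± 0.20, -0.61 ± 0.18 and -0.91 ± 0.22 at days 3, 6, 12 and 21.

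Cyp4a14 and Cyp4a10 encode cytochrome P450 enzymes that hydroxylate fatty acids at the omega end, and the genes lie next to each other on chromosome 4 (chr4:115486200-115496142 and chr4:115518264-115533649). Cyp4a14 (ENSMUSG00000028715.2) had log2 CPM of 5.37, 9.43, 9.74, 7.57 and 7.22 in WT on day 3 and 7.20, 6.54, 5.97, 6.34 and 6.39 in HNKO. On day 6 it was at 8.41, 9.14, 9.28 and 8.52 in WT and 5.34, 7.24, 5.47, 5.40 and 4.59 in HNKO. WT library 1 had the lowest Cyp4a14 value of day 3, under every HNKO library, while on day 6 all 5 HNKO libraries were below WT. Cyp4a14 in WT livers of day 12 was 9.71, 7.94, 8.03, 10.03 and 8.21, whereas in HNKO livers it was 6.47 at the lowest, 7.70 at the median and 8.42 at the highest. Cyp4a14 in WT livers of day 21 was 9.22, 9.04, 9.42, 9.61 and 7.35, whereas in HNKO livers it was 5.91, 7.43 and 7.92. On day 12, 5 of the 6 HNKO libraries were below every WT library, and on day 21 WT library 41 stood apart from the other WT livers and under HNKO libraries 38 and 40. The log2 fold change was -2.04 ± 0.58 on day 3, -2.97 ± 0.62 on day 6, -1.37 ± 0.54 on day 12 and -1.80 ± 0.70 on day 21.

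Cyp4a10 (ENSMUSG00000066072.13) ran close to Cyp4a14. Its WT log2 CPM spanned 6.16 to 9.69 on day 3, 8.36 to 9.12 on day 6, 7.51 to 9.12 on day 12 and 6.93 to 9.25 on day 21. In HNKO the ranges were 6.47 to 7.39, 4.98 to 7.01, 6.58 to 8.22 and 5.85 to 7.31 on the same days. The groups were apart on day 6 alone, and the highest WT liver of day 3 had 11.5 times the CPM of the lowest, which for Cyp4a14 was 20.6 times. Its log2 fold changes were -1.65 ± 0.48, -2.77 ± 0.51, -0.78 ± 0.45 and -1.52 ± 0.57 at days 3, 6, 12 and 21. Across the 38 libraries, with each value taken as its deviation from the group mean, Cyp4a10 and Cyp4a14 correlated with r = 0.93 and rho = 0.90 (permutation p = 1e-05 for each, the smallest that the permutations can give). The r was 0.90 without the 2 libraries farthest from the median of Cyp4a10, 0.95 in the 18 libraries numbered 1 to 21 and 0.91 in the 20 numbered 22 to 41. Transcripts of Cyp4a10 share 29.3% of their stretches of 51 bases with other genes, 23.9% with Cyp4a32 and 14.7% with Cyp4a31, whereas for Cyp4a14 the share was 0.196%. None of the shared stretches of Cyp4a10 counted here were with Cyp4a14.

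Vnn1 and Vnn3 encode vanins, pantetheinases that are anchored to membranes or secreted and that split pantetheine into pantothenate and cysteamine; they lie side by side on chromosome 10 (chr10:23851462-23869843 for Vnn3 and chr10:23894688-23905343 for Vnn1). Vnn3 (ENSMUSG00000020010.7) had log2 CPM of 6.70, 7.001, 7.14, 7.03 and 7.08 in WT on day 3 and 6.25, 5.87, 6.73, 6.31 and 6.34 in HNKO. On day 6 the values were 7.18, 7.20, 7.08 and 6.99 in WT and 6.49, 6.17, 6.91, 6.77 and 6.48 in HNKO. On day 3 only HNKO library 4 reached the WT range, just above WT library 1, and on day 6 no HNKO library did. On day 12 the values were 6.87, 6.997, 6.86, 6.70 and 6.95 in WT, with 5.94 at the lowest, 6.34 at the median and 6.44 at the highest in HNKO. On day 21 they were 6.80, 6.99, 6.64, 7.12 and 6.998 in WT and 6.02, 6.26 and 6.55 in HNKO. The groups did not overlap at days 12 and 21, and the WT livers of a day differed at most 1.39-fold in CPM. The log2 fold changes of Vnn3, smaller than those of Acaa1b at each day, were -0.67 ± 0.13, -0.53 ± 0.14, -0.59 ± 0.12 and -0.63 ± 0.15 at days 3, 6, 12 and 21.

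Vnn1 (ENSMUSG00000037440.8) had log2 CPM of 5.46, 6.56, 6.89, 6.13 and 6.16 in WT on day 3 and 5.70, 4.11, 4.79, 4.27 and 5.61 in HNKO. Values of day 6 were 6.46, 6.88, 6.33 and 5.92 in WT and 5.70, 5.38, 5.26, 5.84 and 5.11 in HNKO. HNKO libraries 2 and 23 of day 3 lay above WT library 1, and on day 6 the groups were narrowly apart. Values of day 12 were 6.75, 6.10, 6.82, 6.48 and 6.41 in WT and, in HNKO, 4.64 at the lowest, 5.03 at the median and 6.24 at the highest. Values of day 21 were 6.44, 6.66, 6.02, 7.17 and 6.403 in WT and 5.66, 5.99 and 6.05 in HNKO. HNKO library 32 was the 1 library of 6 within the WT range on day 12, and HNKO library 40 was just above WT library 21 on day 21. Log2 fold changes of Vnn1 were -1.27 ± 0.29, -0.96 ± 0.30, -1.25 ± 0.28 and -0.68 ± 0.34 at days 3, 6, 12 and 21. Deviations of Vnn1 and Vnn3 from their group means correlated with r = 0.43 (permutation p = 0.02) and rho = 0.40 (permutation p = 0.0244) over 38 libraries, with 0.45 without the 2 libraries farthest from the median of Vnn1, 0.41 in libraries 1 to 21 and 0.46 in libraries 22 to 41.

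Angptl4 (ENSMUSG00000002289.16) encodes a secreted inhibitor of lipoprotein lipase. Its log2 CPM on day 3 was 5.23, 6.09, 6.64, 6.28 and 5.40 in WT and 6.54, 5.06, 2.55, 4.28 and 5.79 in HNKO. The HNKO livers of that day differed 16.1-fold in CPM between library 4, the lowest, and library 2, which was close to the highest WT value. On day 6 Angptl4 spanned 5.88 to 6.80 in WT and 4.98 to 6.31 in HNKO, on day 12 6.42 to 7.22 and 5.38 to 6.31, and on day 21 6.07 to 6.48 and 5.79 to 6.04. The groups overlapped at days 3 and 6 and did not at days 12 and 21, and the log2 fold changes were -0.65 ± 0.38, -0.68 ± 0.40, -1.12 ± 0.36 and -0.39 ± 0.44 in the order of the days. That of day 3 was -1.19 without HNKO library 2 and -0.37 without HNKO library 4.

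Pdk4 (ENSMUSG00000019577.6) encodes a mitochondrial kinase that inhibits the pyruvate dehydrogenase complex. It varied widely within the groups, with log2 CPM of 1.89 to 4.53 in WT and 2.36 to 5.09 in HNKO on day 3, and 1.595 to 5.31 and 2.11 to 4.44 on day 6. On day 12 the ranges were 2.16 to 5.41 in WT and 2.08 to 4.52 in HNKO, and on day 21 they were 2.95 to 4.17 and 1.98 to 5.06. WT and HNKO overlapped at every day, and the log2 fold changes were 0.65 ± 0.67, -0.95 ± 0.71, -1.06 ± 0.63 and 0.44 ± 0.76. Within libraries 1 to 21 and libraries 22 to 41 the difference of mean log2 CPM was 1.77 and -0.25 on day 3. On day 6 it was 0.87 and -1.84, so its sign turned between the series at both days. The log2 fold change of day 21 was -1.16 without HNKO library 37, whose Pdk4 level of 5.06 was above every WT liver of that day. It was 0.90 without HNKO library 38, and also moved by more than 1.5 times without WT library 39 or HNKO library 40. That of day 6 was -0.10 without WT library 27 and -1.64 without HNKO library 29, and that of day 3 was 0.39 without HNKO library 2 and moved by more than 1.5 times without WT library 5 or HNKO library 23.

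At the threshold of an adjusted p under 0.05, the edgeR quasi-likelihood test called 7 of the 9 genes lower on day 3, 6 on day 6, 5 on day 12 and 3 on day 21, where it called 1.71%, 4.37%, 3.27% and 0.916% of all tested genes lower. These counts describe how the genes were selected, and nothing is read from them. Acaa1b, Ehhadh and Vnn3 were called lower at all 4 days, as were 0.0739% of tested genes. On day 21 all 3 of these calls were lost without HNKO library 37, and that of Vnn3 also without HNKO library 38. Calls of day 12 were lost for Ehhadh without HNKO library 11, 12, 13 or 35 or WT library 15, 33 or 34, and for Angptl4 without HNKO library 11, 12, 13, 32 or 36 or WT library 14, 15, 33 or 34. The call of Vnn1 on day 6 was lost without HNKO library 7, 29 or 31 or WT library 8 or 10. Among the calls of day 3, that of Ppara was lost without HNKO library 3, 4 or 23 or WT library 5, 24 or 25, that of Cyp4a10 without HNKO library 2, 3, 4, 22 or 23 or WT library 5 or 24, and that of Cyp4a14 without HNKO library 2, 3, 4 or 23 or WT library 5 or 24. Without the 10 libraries with markers of other tissues, the calls left were those of Acaa1b, Vnn1 and Vnn3 on day 3 and of Acaa1b, Ehhadh, Cyp4a10, Cyp4a14 and Vnn3 on day 6. Every HNKO library was below every WT library for 1 of the 9 genes on day 3, 6 on day 6, 3 on day 12 and 3 on day 21, against 1.80%, 4.68%, 2.14% and 6.70% of all tested genes, and nothing is read from these counts either. The test of a dependence of the genotype difference on the day called 0 of the 9 genes and 0% of the tested genes with edgeR; at an unadjusted p under 0.05 it gave Cyp4a10 among the 9 and 966 genes, or 4.76%, of those tested, and DESeq2 called 12 genes, of which 0 were among the 9. The library numbers run in a series from 1 to 21 and another from 22 to 41, and HNKO day 21 had libraries in the latter series only. Differences of mean log2 CPM, HNKO minus WT, were taken on day 21 within the series from 22 to 41. They were 0.03 for Ppara, -0.81 for Acaa1b, -0.77 for Ehhadh, -0.78 for Vnn3 and -0.40 for Pdk4. Over both series these differences of means were -0.20, -1.07, -0.90, -0.63 and -0.17 in the same order of genes.

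The scale of the differences depended on the reference. When libraries were scaled to the hepatocyte markers in place of all genes, the median log2 fold change of all tested genes moved by 0.33, 0.35, 0.21 and 0.27 at days 3, 6, 12 and 21. Vnn3 was then at -0.35, -0.14, -0.38 and -0.37, Acaa1b at -1.05, -1.18, -0.70 and -0.87, and Ehhadh at -0.48, -0.98, -0.40 and -0.67. Ppara was then at -0.29, -0.03, 0.04 and 0.03, so that its sign turned at days 12 and 21. Without the 10 libraries with markers of other tissues, Ppara was at 0.0048 on day 21. Cyp4a10, Cyp4a14, Vnn1 and Angptl4 kept a negative log2 fold change at each day with this scaling.

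How the 8 target genes varied with Ppara between livers of the same genotype and day was not used to choose them. For each gene the slope on Ppara log2 CPM was fitted with 1 mean per group, and 4.15% of all tested genes passed (edgeR quasi-likelihood test, Benjamini-Hochberg adjusted p under 0.05), 2.42% with a positive and 1.73% with a negative slope. Acaa1b rose with Ppara, with a slope of 0.81 ± 0.15 log2 units per log2 unit (adjusted p = 0.00219), and so did Vnn1, with a slope of 0.83 ± 0.22 (adjusted p = 0.026). The slopes of Cyp4a10 (1.31 ± 0.42, adjusted p = 0.0649), Cyp4a14 (1.46 ± 0.49, 0.0777) and Pdk4 (-1.67 ± 0.58, 0.0911) were steeper but did not pass. Ehhadh had a slope of 0.32 ± 0.17 (adjusted p = 0.299), Angptl4 of 0.51 ± 0.35 (0.443) and Vnn3 of -0.07 ± 0.12 (0.787). These 3 slopes moved with single libraries, that of Ehhadh to 0.21 without HNKO library 32 and that of Angptl4 to 0.24 without HNKO library 2, with a move of more than 1.5 times also without HNKO library 4. The slope of Vnn3 lay between -0.14 without HNKO library 32 and 0.06 without HNKO library 29, and moved by more than 1.5 times also without WT library 1 or HNKO library 3, 4, 7 or 37. Thus 2 of the 8 targets passed with edgeR, and 4 did with DESeq2, where Cyp4a10 (adjusted p = 0.0292) and Cyp4a14 (0.0468) joined them and 1348 genes passed in all, against 843 with edgeR. With scaling to the hepatocyte markers 150 genes passed, and the slopes were 0.94 for Acaa1b (adjusted p = 0.0025), 1.17 for Vnn1 (0.0106) and -0.25 for Pdk4 (0.964). For markers of the cell types, the slopes on Ppara within groups were below 0 for 7 of 7 bile duct markers (median -0.48, 2 passed), 7 of 8 stellate and fibroblast markers (median -0.60) and 6 of 6 macrophage markers (median -0.34), and above 0 for all 11 hepatocyte markers (median 0.21, 1 passed). The part of the cell types in the slopes of the 8 targets was not tested. Several calls of the targets rested on few libraries. The call of Vnn1 was lost without HNKO library 32 of day 12 (slope 0.65, adjusted p = 0.155), and without the 10 libraries with markers of other tissues the slopes were 0.78 for Acaa1b (adjusted p = 0.0562) and 0.81 for Vnn1 (0.202). Cyp4a10 passed in 5 of the 38 fits that left out 1 library, namely HNKO library 4 (adjusted p = 0.0457), WT libraries 14 (0.0395), 16 (0.0408) and 39 (0.0477), and HNKO library 35 (0.0490), and Pdk4 passed without HNKO library 2 (slope -2.10, adjusted p = 0.0215), HNKO library 4 (-1.85, 0.0469) or WT library 24 (-2.11, 0.0330).

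The same relations were computed as correlations of deviations from the group means over the 38 libraries, 8 relations in all, with two-sided permutation tests within groups. For Acaa1b, r was 0.70 (permutation p = 6e-05) and rho 0.62 (permutation p = 0.00034). The r was 0.61 without HNKO library 29 of day 6 and HNKO library 32 of day 12, the 2 farthest from the median Ppara deviation, 0.82 in libraries 1 to 21 and 0.59 in libraries 22 to 41. For Vnn1, r was 0.52 (permutation p = 0.00307) and rho 0.52 (permutation p = 0.00363), with an r of 0.46 without those 2 libraries, 0.78 in libraries 1 to 21 and 0.45 in libraries 22 to 41. Livers with more Ppara than their group's mean thus tended to have more Acaa1b and Vnn1. Cyp4a10 gave r = 0.51 (permutation p = 0.00342) and rho = 0.46 (permutation p = 0.00802), and without the 2 libraries r = 0.48; within the series r was 0.46 and 0.52. Cyp4a14 gave r = 0.49 (permutation p = 0.00612) and rho = 0.43 (permutation p = 0.0124), and without the 2 libraries r = 0.53; within the series r was 0.44 in each. Pdk4 ran the other way, with r = -0.48 (permutation p = 0.00317) and rho = -0.45 (permutation p = 0.0109), -0.37 without the 2 libraries, and -0.31 and -0.65 within the series. For Ehhadh r was 0.31 (permutation p = 0.0686) and rho 0.28 (permutation p = 0.12), for Angptl4 r was 0.25 (permutation p = 0.197) and rho 0.13 (permutation p = 0.487), and for Vnn3 r was -0.08 (permutation p = 0.695) and rho -0.06 (permutation p = 0.761). Without the 2 libraries these 3 r values were 0.26, 0.27 and 0.02; in libraries 1 to 21 and 22 to 41 they were 0.37 and 0.22 for Ehhadh, 0.47 and -0.18 for Angptl4, and -0.0016 and -0.02 for Vnn3. In the 19 WT and the 19 HNKO livers taken apart, r was 0.57 and 0.78 for Acaa1b, 0.10 and 0.55 for Ehhadh, 0.57 and 0.52 for Cyp4a10, 0.65 and 0.38 for Cyp4a14, 0.56 and 0.49 for Vnn1, 0.10 and -0.16 for Vnn3, 0.31 and 0.24 for Angptl4, and -0.36 and -0.60 for Pdk4. Ehhadh followed Acaa1b, with r = 0.71 and rho = 0.74 (permutation p = 1e-05 for each, the smallest possible), 0.65 without the 2 libraries farthest from the median of Acaa1b, 0.70 in libraries 1 to 21 and 0.83 in libraries 22 to 41.

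**Figure D2:**
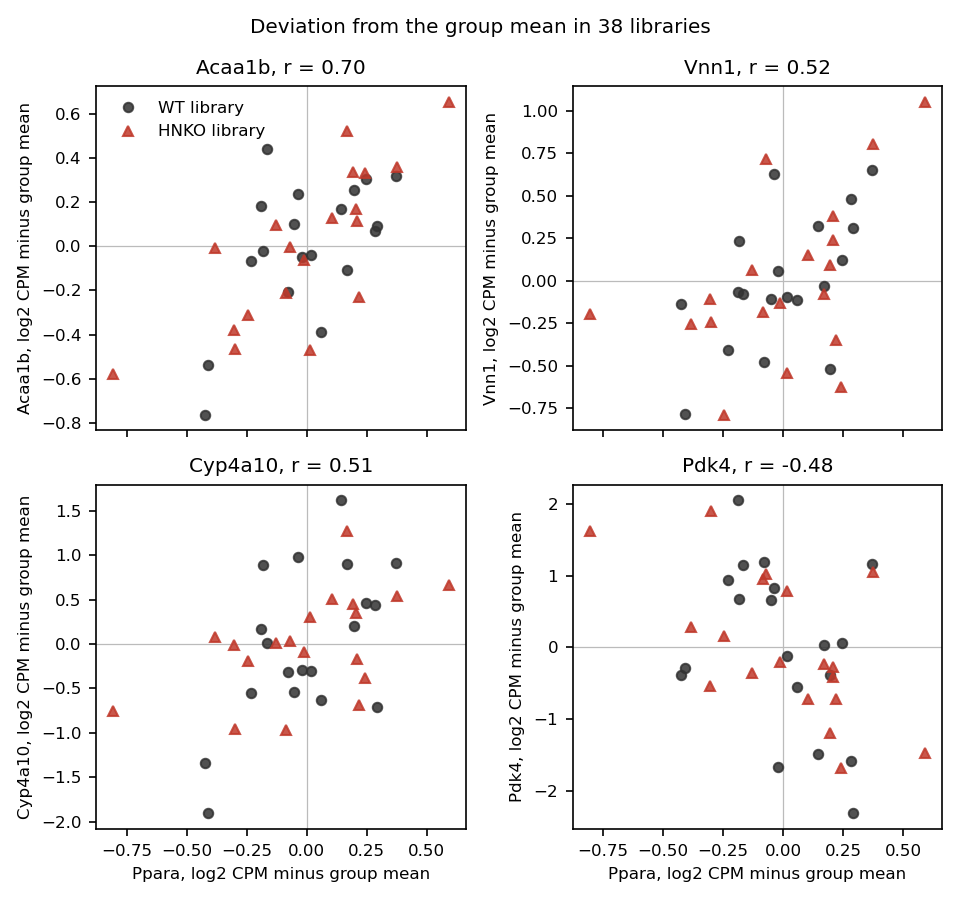
Deviation of log2 CPM from the group mean for Acaa1b, Vnn1, Cyp4a10 and Pdk4 (vertical axes) against that of Ppara (horizontal axis). Each point is 1 library, 38 libraries in all. Acaa1b has the highest r, 0.70, Vnn1 has r = 0.52, Cyp4a10 has r = 0.51, and Pdk4 slopes downward with r = -0.48.

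Ppara is known to cycle over the day in liver, so 10 genes of the circadian clock were measured as well. Between genotypes, 1 of the 10 was lower in HNKO in the mean of days, Hlf (-0.51 ± 0.13, edgeR quasi-likelihood test, adjusted p = 0.00232), where 17.3% of all tested genes were lower and 19.2% higher. Within groups, 6 of the 10 clock genes passed with a positive slope on Ppara and 2 with a negative slope. Of all tested genes 2.42% and 1.73% did. A clock score, the signed mean of these genes' scaled log2 CPM as deviations from the group means, was set against each of the 9 genes, 9 relations in all. It correlated with Ppara with r = 0.67 (permutation p = 4e-05) and rho = 0.64 (permutation p = 9e-05), with r = 0.57 without the 2 libraries of most extreme score, 0.53 in libraries 1 to 21 and 0.93 in libraries 22 to 41. With Pdk4 the correlation was r = -0.85 and rho = -0.87 (permutation p = 1e-05 for each, the smallest possible), -0.84 without the 2 libraries, and -0.89 and -0.82 in the series. Acaa1b gave r = 0.35 (permutation p = 0.0114) and rho = 0.32 (permutation p = 0.0406), with 0.27 without the 2 libraries and 0.22 and 0.47 in the series, and Vnn1 gave r = 0.30 (permutation p = 0.0286) and rho = 0.31 (permutation p = 0.0533), with 0.29, 0.25 and 0.31. For the other 5 genes r lay between -0.31 (Ehhadh) and 0.16 (Cyp4a10), with permutation p from 0.0748 upward. When the clock score was added to the fit, the slope on Ppara was 0.997 for Acaa1b (adjusted p = 0.00732) and 0.93 for Vnn1, which no longer passed (0.0735), that of Pdk4 turned to 0.70 (0.442), and Cyp4a14 (2.30, 0.0437) and Ehhadh (0.94, 0.00201) passed. The 6 genes that mark the fed or fasted state, among them Pck1 (-0.10 ± 0.15), G6pc (-0.30 ± 0.31) and Pnpla3 (-0.86 ± 0.41), gave 0 calls in the mean of days with edgeR and 0 with DESeq2, and 1 at an unadjusted p under 0.05.

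The other genes of the pathway were taken from lists that do not hold the 9 genes, although the lists, too, were drawn up with results of these data known, so their direction is not independent evidence. Calls in this account are in the mean of the 4 days' contrasts (edgeR quasi-likelihood test, Benjamini-Hochberg adjusted p under 0.05), where 17.3% of all tested genes were lower in HNKO, 19.2% were higher, and the median log2 fold change was -0.0064. With scaling to the hepatocyte markers, the median of all tested genes moved by 0.29 in this mean of days, to 0.28. Of all tested genes 546 were then lower and 11215 higher, and the list counts with this scaling stand against these. Among 14 receptors and cofactors, 7 were lower and 1 higher, with a median log2 fold change of -0.16; with scaling to the hepatocyte markers 6 were higher and the median turned to 0.12. The count of 7 was 3 without HNKO library 23, 30, 35 or 40, and 4 without HNKO library 29 or 37. The corepressor gene Ncor1 (-0.25 ± 0.06, adjusted p = 0.000636), Rxrb, which encodes a heterodimer partner of PPARA (-0.17 ± 0.04, 0.00159), and the coactivator gene Ppargc1a (-0.35 ± 0.09, 0.00392) were lower.

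Of the 23 genes of peroxisomal oxidation 20 fell and the other 3 did not pass, with a median of -0.44, and with scaling to the hepatocyte markers 10 did, with a median of -0.15. Abcd3 and Abcd2, which encode transporters of fatty acyl-CoA into peroxisomes, had log2 fold changes of -0.68 ± 0.08 (adjusted p = 4.14e-08) and -0.56 ± 0.09 (6.92e-06). The peroxisomal acyl-CoA thioesterase gene Acot3 fell by the most on the list (-1.90 ± 0.29, adjusted p = 3.87e-06), and Hsd17b4, the other bifunctional enzyme of the peroxisomal cycle, fell less (-0.46 ± 0.07, 9.53e-06). Within groups, 16 of the 23 had a positive slope on Ppara that passed the test, against 2.42% of all tested genes, a count of 10 without HNKO library 32 of day 12, and 5 without the 10 libraries with markers of other tissues. With scaling to the hepatocyte markers 11 of these slopes passed, where the slopes that passed over all genes went from 843 to 150. Among 16 genes of peroxisome biogenesis, 12 were lower, with a median of -0.28, and 3 had a positive slope on Ppara that passed, 8 without HNKO library 2 and 5 without HNKO library 4 or WT library 16; with scaling to the hepatocyte markers 1 was lower, 2 were higher, the median was 0.0076 and 1 slope passed. Without the 10 libraries with markers of other tissues these slopes no longer passed. Pex11a, which acts in the division of peroxisomes, fell by more (-0.81 ± 0.10, adjusted p = 2.34e-07) than Pex3 (-0.30 ± 0.05) and Pex13 (-0.29 ± 0.05), which serve the import of proteins and the formation of the membrane.

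**Figure D3:**
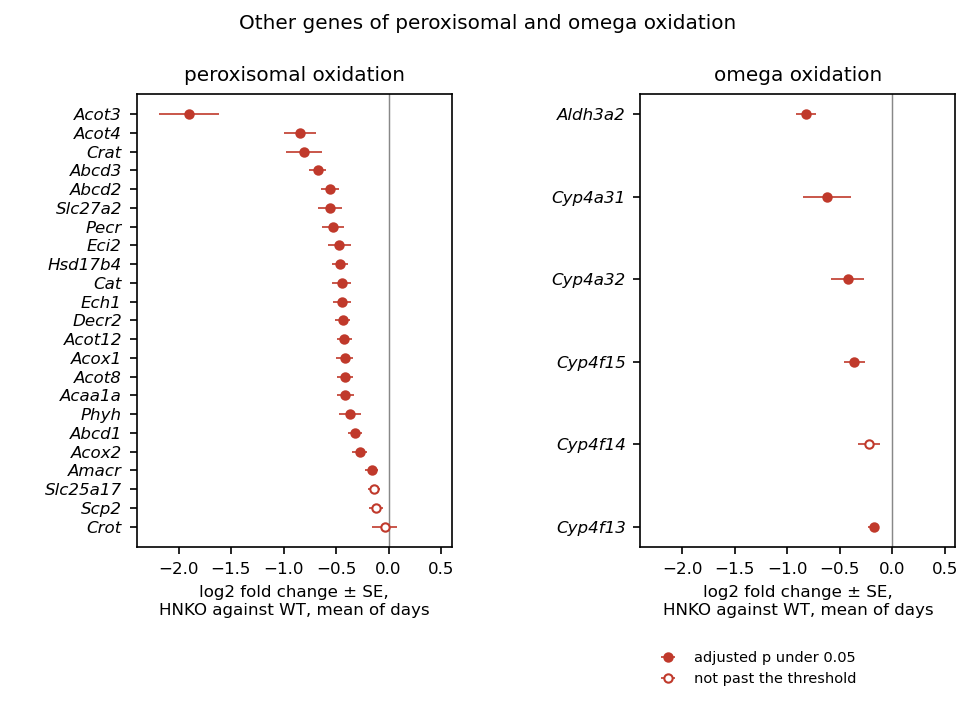
Log2 fold change of HNKO against WT in the mean of days (horizontal axis, bars are SE) for the tested genes of peroxisomal oxidation and omega oxidation, with filled points for an adjusted p under 0.05. Acot3 lies furthest to the left at -1.90, and with scaling to the hepatocyte markers the medians were -0.15 for peroxisomal and -0.12 for omega oxidation.

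Of 8 further genes of omega oxidation 6 were tested and 5 were lower, with a median of -0.40; with scaling to the hepatocyte markers 1 was lower and the median was -0.12. The count of 5 was 3 without WT library 27 or without HNKO library 29, 30 or 37. Aldh3a2, a fatty aldehyde dehydrogenase of the endoplasmic reticulum, was the 1 gene of the pathway lists called at all 4 days (-0.82 ± 0.09 in the mean of days, adjusted p = 3.21e-08), with log2 fold changes of -0.77, -1.09, -0.63 and -0.80 at days 3, 6, 12 and 21. Its call of day 21 was lost without the 10 libraries with markers of other tissues. Cyp4f15 (-0.37 ± 0.10, 0.00392), Cyp4f13 (-0.18 ± 0.06, 0.0102) and Cyp4a31 (-0.62 ± 0.23, 0.0322), with which Cyp4a10 shares 14.7% of its stretches, were lower as well. In the list of mitochondrial oxidation and ketogenesis, 15 of 17 genes were lower, with a median of -0.42, and 14 had a positive slope on Ppara that passed, against 2.42% of all tested genes; with scaling to the hepatocyte markers 5 were lower, the median was -0.10 and 11 slopes passed. The dehydrogenase genes Acadl (-0.43 ± 0.06, adjusted p = 6.12e-07), Acadm (-0.46 ± 0.07, 5.29e-06) and Hadh (-0.43 ± 0.06, 8.48e-07) and Etfdh, which passes electrons from acyl-CoA dehydrogenases such as Acadl and Acadm to the respiratory chain (-0.44 ± 0.06, 6.8e-07), led this list. Without the 10 libraries with markers of other tissues, 4 of the 17 slopes on Ppara passed.

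Of 18 genes of lipid uptake and storage 9 were lower and 2 higher, with a median of -0.23, which turned to 0.07 with scaling to the hepatocyte markers. In 19 of the 38 fits that left out 1 library, 1 gene was higher in place of 2. Acsl1, which activates fatty acids (-0.76 ± 0.10, adjusted p = 2.24e-07), the fatty acid binding protein gene Fabp2 (-0.53 ± 0.10, 0.000114) and G0s2, which encodes an inhibitor of adipose triglyceride lipase (-1.0001 ± 0.20, 0.000168), were lower, whereas Lpl, lipoprotein lipase, also on the list of angiopoietin-like and lipase genes, was higher (0.85 ± 0.14, 2.23e-05). Among the angiopoietin-like and lipase genes beside Angptl4, 5 of 8 were lower and 1 higher, with a median of -0.38 and of -0.10 with scaling to the hepatocyte markers (3 lower without HNKO library 37); the lower ones included Angptl6 (-0.73 ± 0.10, 1.38e-06) and the hepatic lipase gene Lipc (-0.35 ± 0.09, 0.00236). In the list of pantetheine and coenzyme A, the setting of the vanins, 7 of 11 genes were lower with a median of -0.19, which turned to 0.10 with scaling to the hepatocyte markers. Pank1, a kinase at the first step of coenzyme A synthesis, had -0.47 ± 0.08 (adjusted p = 3.13e-05), Enpp1 -0.24 ± 0.05 (0.000235), Coasy, which completes the synthesis, -0.21 ± 0.04 (0.000362) and Pank4 -0.19 ± 0.04 (0.00048). In the list of pyruvate dehydrogenase control, all 12 genes passed, 10 lower and 2 higher, with a median of -0.39; with scaling to the hepatocyte markers 3 were lower and 2 higher, and the median was -0.11. Pdk2, a kinase like Pdk4, was lower (-0.66 ± 0.10, adjusted p = 8.63e-06), as were the opposing phosphatase gene Pdp2 (-0.59 ± 0.09, 3.14e-06), the shared subunit gene Dld (-0.39 ± 0.05, 2.61e-07) and the pyruvate carrier gene Mpc1 (-0.40 ± 0.06, 2.72e-06).

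Slopes on Ppara were tested for the other lists as well. Over all tested genes 2.42% passed with a positive and 1.73% with a negative slope. Among the 14 receptors and cofactors 2 were positive and 2 negative. There were 4 positive without HNKO library 2 or 4, 1 positive without HNKO library 29 or 32, and 1 negative without WT library 1 or HNKO library 32. Omega oxidation had 2 positive slopes of 6 (1 without HNKO library 29 or 32), and lipid uptake and storage had 4 of 18 (2 without HNKO library 29, 32 or 37). Pantetheine and coenzyme A had 1 of 11, which was lost without WT library 14 or HNKO library 29, 31, 32, 37, 38 or 40. On that list 3 passed without HNKO library 2 and 2 without WT library 1 or HNKO library 4 or 7. Pyruvate dehydrogenase control had 1 of 12, which was lost without HNKO library 29 or 37. On this list 2 passed without HNKO library 2, 4 or 35 or WT library 34, and 1 negative slope passed without HNKO library 2. The angiopoietin-like and lipase genes had 0 of 8 with edgeR, 2 at an unadjusted p under 0.05 and 0 with DESeq2, and 1 passed without HNKO library 2, 4 or 7. The feeding-state genes had 0 of 6 with edgeR, 3 at an unadjusted p under 0.05 and 1 with DESeq2. Of them 2 passed with a negative slope without HNKO library 2 and 1 without HNKO library 29, and 1 passed with a positive slope without WT library 41. With scaling to the hepatocyte markers 1 receptor or cofactor, 2 genes of omega oxidation and 3 of lipid uptake and storage passed, all with a positive slope. Without the 10 libraries with markers of other tissues these slopes no longer passed.

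The genes most like the 9 were sought among all other tested genes, as those whose deviations from the group means over 38 libraries had the highest r with the mean of the 9 genes' scaled deviations. They were Retsat (r = 0.85), Ech1 (0.85), Cyp4a31 (0.82), Slc25a20 (0.82), Acot1 (0.80), Acot8 (0.79), Eci1 (0.79) and Rab30 (0.78). Retsat encodes a retinol saturase, Ech1 and Eci1 encode isomerases of fatty acid oxidation, and Slc25a20 encodes the mitochondrial carnitine carrier. Acot1 and Acot8 encode acyl-CoA thioesterases, and Rab30 encodes a small GTPase. Cyp4a31 shares 14.7% of the stretches of 51 bases of Cyp4a10, and the part of shared reads in its likeness was not tested. All 8 were lower in HNKO in the mean of days (edgeR quasi-likelihood test, Benjamini-Hochberg adjusted p under 0.05). Of all tested genes 17.3% were lower and 19.2% higher in this contrast. The 8 values ran from Acot8 at -0.41 ± 0.08 to Acot1 at -1.37 ± 0.26. Scaling to the hepatocyte markers moved the median of all tested genes by 0.29 here, and 546 genes were then lower in place of 3510.

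The promoters of Acaa1b, Ehhadh and Vnn3 are shown since these 3 genes were the ones named in the choice of the 9. The sequences are from RefSeq, build GRCm38.p6, and are windows of 300 bases at the start of the gene; the set of promoters used here held a sequence for 5 of the 9 genes and not for Cyp4a10, Cyp4a14, Vnn1 and Angptl4. The windows are chr9:119157044-119157343 on the minus strand, chr16:21787785-21788084 on the minus strand and chr10:23851212-23851511 on the plus strand. PPARA and its partner bind direct repeats of a half-site with a single base between them, so both strands were searched for such a repeat of AGGTCA, and capitals mark the stretches nearest to it. Vnn3 had a stretch with 3 mismatches, as had 24.7% of the 32851 mouse promoters of the same length, while the nearest stretches of Acaa1b and Ehhadh had 4, as had 79.8%, counting promoters with that many or fewer. The nearest stretches of Ppara and Pdk4 also had 4 mismatches, and the half-site AGGTCA, found in 16.3% of all promoters, occurred in none of the 5. Nothing on binding is drawn from these matches.
Acaa1b: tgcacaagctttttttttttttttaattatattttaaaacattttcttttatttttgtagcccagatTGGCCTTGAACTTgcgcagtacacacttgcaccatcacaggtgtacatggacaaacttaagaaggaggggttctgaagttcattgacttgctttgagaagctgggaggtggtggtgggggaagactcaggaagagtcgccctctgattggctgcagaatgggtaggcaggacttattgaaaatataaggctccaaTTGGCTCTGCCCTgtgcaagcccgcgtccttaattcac
Ehhadh: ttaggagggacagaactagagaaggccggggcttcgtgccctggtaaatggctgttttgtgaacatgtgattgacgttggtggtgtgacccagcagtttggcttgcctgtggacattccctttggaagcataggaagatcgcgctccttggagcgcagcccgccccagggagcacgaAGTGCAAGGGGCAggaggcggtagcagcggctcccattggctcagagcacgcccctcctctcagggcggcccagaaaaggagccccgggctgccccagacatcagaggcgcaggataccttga
Vnn3: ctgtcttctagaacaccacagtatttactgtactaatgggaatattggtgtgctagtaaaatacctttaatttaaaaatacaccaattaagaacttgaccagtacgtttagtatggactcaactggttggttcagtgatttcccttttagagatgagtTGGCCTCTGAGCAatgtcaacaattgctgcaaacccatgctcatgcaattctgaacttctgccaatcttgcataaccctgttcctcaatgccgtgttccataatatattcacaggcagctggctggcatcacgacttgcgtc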

How the data were processed

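Whole livers of HNKO and WT mice were measured by paired-end sequencing of RNA depleted of ribosomal RNA. The deposited count table holds raw fragment counts per gene, which the authors made, according to the submitters' processing notes, with STAR 2.7.2b on GRCm38 (mm10) and featureCounts 1.6.4, and they tested them with edgeR 3.26.0. The use of strand in counting was not stated. Gene positions, exon lengths and transcripts came from GENCODE M21, whereas the counting used a later release. Total counts ranged from 16151037 to 64181492 over 38 libraries and a gene of the 9 had at least 61 counts in each.

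Counts were tested in R 4.3.3 with edgeR 4.0.16 by its legacy quasi-likelihood test, with TMM scaling, a filter (filterByExpr, minimum count 10, minimum total 15, proportion 0.7) and 1 mean for each of 8 groups. Contrasts were HNKO against WT at each day and in the mean of days, the interaction of genotype and day, the day effect in each genotype, and the slope on Ppara within groups. Adjusted p are by Benjamini-Hochberg over all 20297 tested genes, with a threshold of 0.05. Values per library are log2 CPM with a prior count of 2. Correlations used deviations from group means and 1e+05 two-sided permutations within groups. The computation was tested on simulated data.

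The 9 genes and the lists of pathway, clock and cell-type genes were chosen with earlier results of these data known. Named genes are the 9, up to 4 with the smallest p in the mean of days on each list and any called at all 4 days, the 8 most correlated with the 9, and Acaa1a as a paralog. HNKO libraries 17 and 18 were left out for failed quality control.

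Alternatives were DESeq2 size factors, DESeq2 1.42.0 as the test, no filter beyond 1 count, a minimum of 10 counts per library, the full 40 libraries, the edgeR 4 computation, label series or clock score as a covariate, scaling to hepatocyte markers, fits of the 2 groups of a day, and each library left out in turn. Leaving out the 10 libraries with over 10 CPM of markers of other tissues was chosen after seeing the data.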

Additional observations from a re-analysis of the deposited data

Results flagged for a closer look

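In 4 of 63 tested combinations of gene and group, 1 library lay far from the others of its group. Chance marks about 1 in 20 groups in this way, and HNKO at day 21, with 3 libraries, was too small to be tested. Ppara log2 CPM in HNKO library 29 of day 6 was 6.765, and the next value in that group was 7.74. In the same library Pdk4 was 4.439, with the next value at 2.595. Library 29 also had the lowest summed hepatocyte markers of the 38 libraries (63123 CPM) and the highest summed markers of bile duct (764 CPM), stellate cells and fibroblasts (1073 CPM) and macrophages (659 CPM). Cyp4a14 was 7.353 in WT library 41 of day 21, where the next value was 9.045, and Pdk4 was 2.162 in WT library 16 of day 12, where the next value was 4.505. The cause of these values, and the part of the cell types in them, was not tested.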

How the results depend on the processing

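The counts of genes called between genotypes were 945, 2596, 1588 and 634 on days 3, 6, 12 and 21, and 7398 in the mean of days. With DESeq2 the count was 1428 on day 3 and 994 on day 21, with 12 genes for the interaction (0 with edgeR, 966 at an unadjusted p under 0.05), 1784 for the day effect in WT (1185 with edgeR) and 1348 for the slope on Ppara (843 with edgeR). With all 40 libraries the counts by day were 331, 1321, 624 and 1350, and 581 for the day effect in WT, which was 2224 with label series as covariate. With the clock score as covariate, days 3, 12 and 21 had 1831, 2549 and 1251 genes, the interaction 25, and the day effects 2092 in WT and 2494 in HNKO (1604 without it). Fits of the 2 groups of a day gave 420, 1325 and 867 genes on days 3, 6 and 12.

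Scaling to the hepatocyte markers gave 3925, 4087 and 1012 genes on days 3, 6 and 12 and 11761 in the mean of days, 546 lower and 11215 higher, against 3510 and 3888 otherwise. The pathway lists then had 28 genes lower and 16 higher, against 90 and 5, and 579 genes had a day effect in HNKO and 150 a slope on Ppara. Without the libraries with markers of other tissues, 225, 90 and 2 genes were called on days 3, 12 and 21, 4117 in the mean of days, 4 for the interaction, 565 and 368 for the day effects in WT and HNKO, and 32 for the slope on Ppara. That setting has fewer samples, and the cause of the other changes was not tested.

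Leaving out 1 library in turn gave 322 (without HNKO library 23) to 1668 (HNKO 22) genes on day 3, 1126 (HNKO 29) to 3027 (HNKO 31) on day 6, 852 (WT 15) to 1773 (HNKO 29) on day 12, and 13 (HNKO 37) to 915 (HNKO 29) on day 21. The interaction had 0 to 3 genes (HNKO 32) and the slope on Ppara 362 (HNKO 32) to 1961 (HNKO 2). Counts stayed within 1.5 times for the mean of days (5954 to 7581), the day effects in WT (811 to 1385) and HNKO (1183 to 1770), and the lists (78 to 92 lower, 4 to 5 higher).

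The slope of Pdk4 on Ppara turned to 0.7003 with the clock score as covariate (adjusted p = 0.442, edgeR). That of Vnn3 turned to 0.06403 without HNKO library 29 (adjusted p = 0.877, edgeR), and was lowest at -0.1374 without HNKO library 32. The other 6 target genes kept the direction of their slope in these fits.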

Other observations

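HNKO libraries 17 and 18 of day 21, left out for failed quality control, had 12287423 and 15935527 total counts. With all 40 libraries scaled together, Nampt was 5.83 in library 17 and 5.83 in library 18, both below the lowest WT liver of day 21 (6.26). Vnn3 was 6.53 and 6.35 against a lowest WT value of 6.65, and Vnn1 was 5.90 and 5.48 against 6.03. Ppara was 8.45 and 7.51, Acaa1b 8.63 and 7.93, and Ehhadh 8.44 and 7.88, of which only the values of library 18 were below every WT liver of that day (7.81, 8.15 and 8.26). Cyp4a10, Cyp4a14, Angptl4 and Pdk4 lay within the WT range in both libraries.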
